A study of Mus musculus with 12 samples.

Results

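Genes of the cytosolic ribosomal proteins were examined in cultured adult mouse ventricular myocytes. They were chosen by symbol: Rpl or Rps followed by a digit, or Rplp0, Rplp1, Rplp2 or Rpsa, without Rps6k kinases, symbols ending in "-ps" and a number, and Rps3a2. The rule found 70 genes among 24704 with a single symbol. They comprised 31 proteins of the large subunit, 22 of the small subunit, 2 stalk proteins, 8 paralogs and 5 copies of ribosomal protein genes. The products of the other 2, Rps19bp1 (which binds Rps19) and Rps23rg1, are not ribosome subunits. Of the 30 genes singled out by name for this account, 23 were found; Rpl11, Rpl13a, Rpl26, Rpl39, Rps27a, Rps6 and Rplp2 were not analysed here.

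The study used Affymetrix arrays to ask whether the histone H3 serine phosphorylation induced by Iso accompanied altered gene expression, and whether this needed CaMKII, the calcium/calmodulin-dependent kinase of the heart. Myocytes came from adult mice lacking both CaMKIIδ and CaMKIIγ (DKO) or from the corresponding wild type mice (WT). Cells were isolated by Langendorff perfusion, and each preparation was cultured for 24 h with 100 nM Iso (isoprenaline, a β-adrenergic agonist) or without it. This gave 4 groups of 3 arrays (untreated WT, Iso-treated WT, untreated DKO, Iso-treated DKO) from 6 mice, 3 of each genotype, each giving an untreated and a treated array. The sources used here do not say how or in which cells the genes were deleted, nor the sex of the mice.

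A ribosome holds a single copy of nearly every ribosomal protein, so cells tend to make these proteins in matched amounts. Much of that control acts on translation: their messenger RNAs begin with a run of pyrimidines, the TOP motif, which lets the kinase mTORC1 and the binding protein Larp1 switch their translation on and off. Growth of a heart muscle cell under adrenergic drive is accompanied by production of ribosomes. Some members have a paralog that can replace them, and among these Rpl3l is known as the striated muscle form of Rpl3. Arrays measure RNA level and carry no information on translation.

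The TOP motif is a pyrimidine run at the start of the RNA, so the start regions of some members named below are shown. Sequences are from RefSeq (GRCm38.p6), from 35 bases before to 15 bases from the annotated start on, 5′ to 3′ on the gene's strand, with the longest run of C and T in capitals. For Rpl34 and Rps27l, the start with the longer run of 2 annotated ones is shown.
Rpl22l1: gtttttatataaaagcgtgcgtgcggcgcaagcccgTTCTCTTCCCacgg
Rps27: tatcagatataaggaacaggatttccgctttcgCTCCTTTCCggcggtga
Rps27l: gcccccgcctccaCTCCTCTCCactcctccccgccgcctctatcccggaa
Rpl31: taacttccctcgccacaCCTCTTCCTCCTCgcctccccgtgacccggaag
Rpl34: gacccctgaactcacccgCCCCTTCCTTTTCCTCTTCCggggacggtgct
Rps3: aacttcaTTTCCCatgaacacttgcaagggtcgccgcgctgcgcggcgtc
These windows lie at chr3:28805473-28805522 (plus strand), chr3:90213634-90213683 (minus), chr9:66946051-66946100 (plus), chr1:39367816-39367865 (plus), chr3:130730323-130730372 (minus) and chr7:99483695-99483744 (minus). The run was 20 bases long in Rpl34, 13 in Rpl31, 10 in Rpl22l1, 9 in Rps27 and in Rps27l, and 6 in Rps3. At the start not shown it was 8 bases long in Rpl34 and 5 in Rps27l. It spanned the start in Rpl34 and Rps27, began just after it in Rpl22l1, and lay before it in Rpl31, Rps27l and Rps3.

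RefSeq promoters were found for 53 of the 70 members, with 65 windows. Within 30 bases of the start on either side, the longest C and T run had a median of 7 bases in members and 5 bases over all 32851 windows of 27025 genes. A run of at least 8 bases was present in 26 member windows, which is 40.0%, against 22.9% of all windows. The letters CCGGAAG, or CTTCCGG on the other strand, occurred in 18 member windows of 300 bases, which is 27.7%, against 8.86% of all windows. These are matches of letters and were not tied to any measured expression.

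Expression values are the deposited log2 intensities after robust multi-array averaging (RMA), so a difference of 1 is a doubling. They can be compared between arrays for the same gene, but each probe set has its own brightness, so a gene's level is set only against the median of the array and not against another gene's. A gene was tested where it lay above its array's median on at least 3 of the 12 arrays, which kept 13737 genes and 53 of the 70 members. The array medians were 3.31 to 3.32. Of all members, 39 lay above the median on all 12 arrays and 13 on none.

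The 17 members that were too dim to test had levels between 2.39 and 3.82. They were Rpl3, Rpl9, Rpl10, Rpl10l, Rpl19, Rpl21, Rpl24, Rpl28, Rpl30, Rpl32l, Rpl36a, Rpl37, Rps2, Rps4x, Rps16, Rps26 and Rps29. Most of these encode proteins that every ribosome contains, so a dim probe set here is no measure of how much of the RNA the cells held. Just outside the limit was Rpl30, above the median on 2 arrays (2.56 to 3.48), and just inside were Rpl32-ps, Rps20 and Rps28, each above it on 3 arrays. For Rps20 all 3 were untreated arrays (3.40 and 3.43 in WT, 3.79 in DKO). Its lower values with Iso are therefore not independent of the filter.

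Near-identical copies bear on these readings. Of 38 left-out symbols ending in "-ps" and a number, 29 were bright enough to test, among them copies of dim members. The probe sets of Rpl9 (2.39 to 2.89) and Rps2 (2.73 to 3.19) lay below the array median on all arrays, and those of the copies Rpl9-ps6 (12.05 to 12.94) and Rps2-ps5 (11.24 to 11.86) lay above it on all. Rpl6 (2.65 to 4.03) and Rps3a1 (3.15 to 4.30) lay on either side of the median, and their copies Rpl6l (9.40 to 9.86) and Rps3a3 (12.14 to 13.16) lay above it on all arrays. How much of a probe set's signal belongs to the gene and how much to its copies was not tested, so every value is uncertain in this respect and is that of the probe set carrying the name.

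The labels were checked first. Camk2g, which encodes CaMKIIγ, measured 5.14 ± 0.33 (SD, n = 3) in untreated WT and 3.97 ± 0.35 in untreated DKO, and 5.63 ± 0.21 against 3.96 ± 0.13 with Iso. It fell in the DKO by 1.17 without Iso (limma with Benjamini-Hochberg adjustment over all genes tested, adjusted p = 0.0361) and fell by 1.67 with Iso (adjusted p = 0.00238). Camk2d, which encodes CaMKIIδ, differed by -0.29 and -0.35 and did not pass (adjusted p = 0.446 and 0.640, limma). The sources used here do not say whether its probe set reads the deleted part of the gene. Defining myocyte genes were bright on every array, with Myh6 at 11.86 to 12.48 and Tnnt2 at 13.15 to 13.58. Endothelial Pecam1 (7.78 to 8.58) and fibroblast Dcn (10.12 to 11.01) were also well above the array median, as were Cd74 (7.23 to 8.55) and Cd68 (6.13 to 7.37) of the macrophage and leukocyte list. Ptprc of the same list (2.90 to 3.30) was not above the median on any array. The other genes of this list and of the fibroblast list lay nearer the median, such as Itgam (2.93 to 3.54), Col1a1 (4.29 to 5.12) and Pdgfra (3.09 to 3.91). Fibroblast Tcf21 (2.97 to 3.33) was too dim to test. Such cultures are bulk samples, in which fewer cells of a type and less RNA per cell cannot be told apart.

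One array stood apart. The third untreated DKO array correlated at 0.949 to 0.965 with the others over all tested genes, and its root mean square deviation from its group mean was 0.374 over all genes (0.141 to 0.276 on the other arrays) and 0.516 over members (0.203 to 0.356). It was the highest array for 15 and the lowest for 10 of the 53 members. Over all genes these shares were 24.6% and 24.9%. For some of the members named below, the value without it is given too.

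No member passed the test in any of 6 comparisons: Iso in WT, Iso in DKO, Iso averaged over both genotypes, the difference between both Iso effects, DKO against WT without Iso, and DKO against WT with Iso (limma, adjusted p under 0.05 over 13737 genes). Few genes of any kind passed. Of all tested genes, Iso called 0.0218% in WT, 0.051% in DKO and 0.124% on average, the difference between the Iso effects called 0.0146%, and genotype called 0.204% without and 0.306% with Iso, so 0 of 53 members is near the background in each. In the same order, 4, 6, 6, 3, 10 and 2 members had an unadjusted p under 0.05 in limma, against 6.7%, 18.4%, 14.4%, 10.1%, 13.8% and 7.91% of all genes. Absence of a call does not show that levels were equal. The 95% interval of the averaged Iso effect lay within 1 log2 unit of 0 for 51 of 53 members, against 98.6% of all genes. That of the difference between the Iso effects did so for 24 of 53, against 75.1% of all genes.

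Iso in WT cells left the ribosomal protein genes spread around 0. The median log2 difference over the 53 members was -0.05, with 24 above 0, against -0.01 over all genes. The large subunit had a median of -0.05 (9 of 21 above 0) and the small subunit 0.02 (9 of 17 above 0). Treated and untreated arrays did not overlap for 8 members, 15.1%, against 15.6% of all genes. Those higher with Iso were Rpl31, Rps4l, Rps19, Rpl22l1 and Rps15a, and those lower were Rpl27a, Rps20 and Rpl34. Of these, Rps20 had passed the filter only through untreated arrays. 

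**Figure D1:**
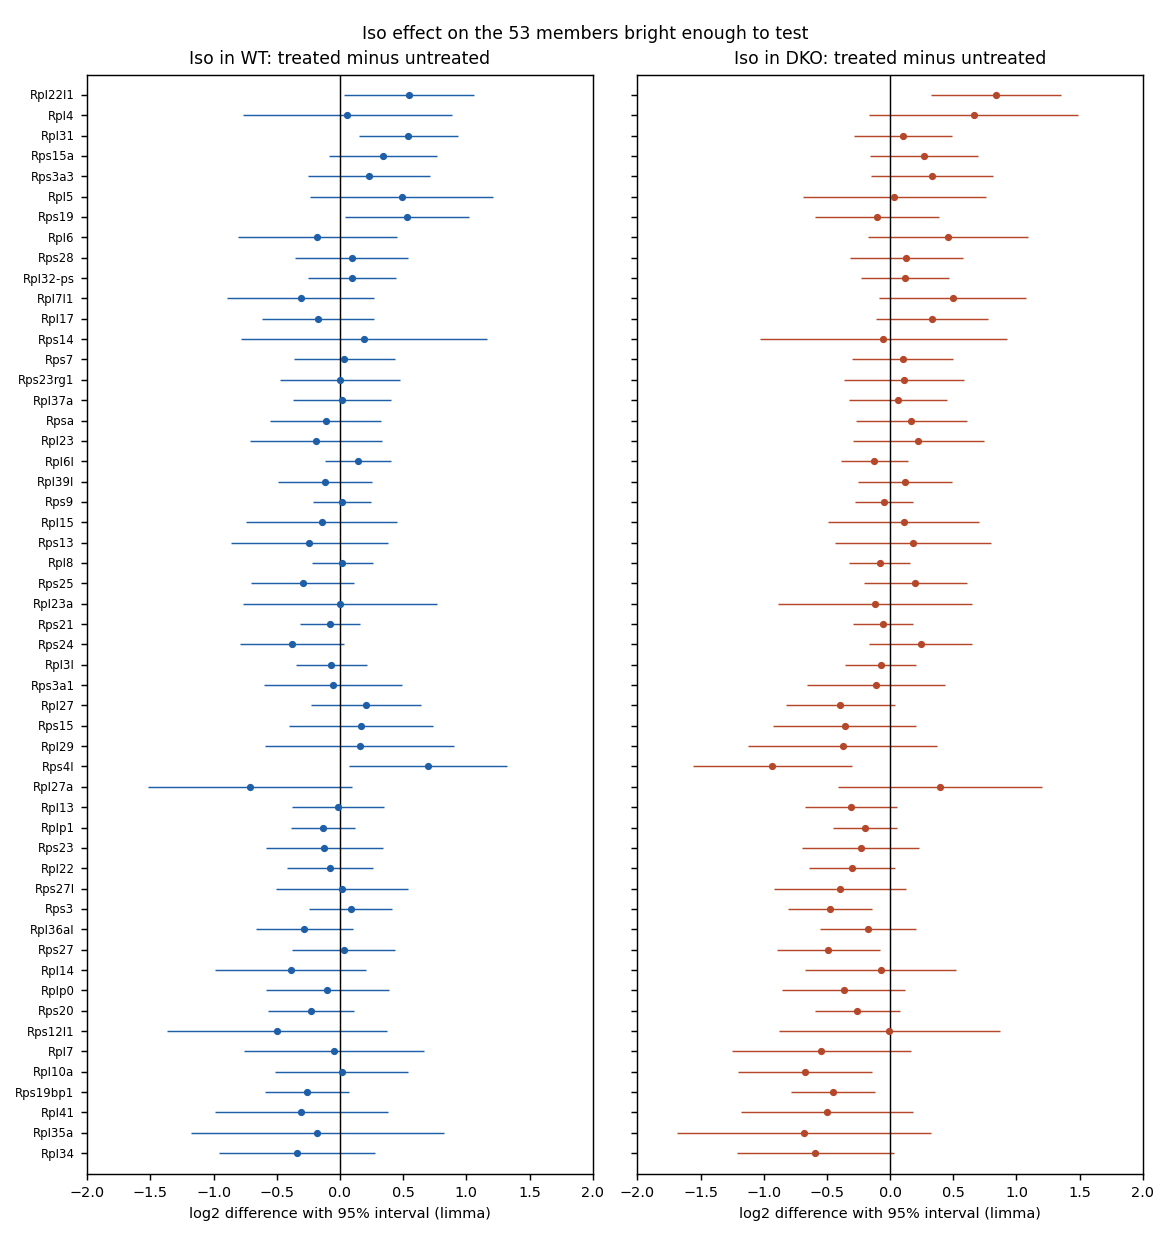
Log2 difference between Iso-treated and untreated arrays for each of the 53 tested members in WT (left) and DKO (right), with the 95% interval from limma. Genes are ordered by the Iso effect averaged over both genotypes; Rpl22l1 is at the top, Rpl34 at the bottom, and no member passed the test in either genotype.

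Rpl31, a large subunit protein beside the exit of the nascent chain, had the smallest p of the members in WT. It measured 6.99, 7.39 and 6.88 in untreated WT and 7.62, 7.40 and 7.87 in treated WT, so each treated array lay above all untreated ones, although 1 pair of these differed by only 0.01. The difference was 0.54 (SE 0.18, 95% interval 0.15 to 0.93, limma adjusted p = 0.598). In the DKO, Rpl31 measured 7.04, 7.25 and 6.88 untreated and 7.01, 7.04 and 7.42 treated, and these groups overlapped.

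Rps19, a small subunit protein known for its mutations in Diamond-Blackfan anaemia, measured 4.36, 4.36 and 3.86 in untreated WT and 4.51, 4.80 and 4.87 with Iso. All treated arrays were higher, by 0.53 on average (SE 0.23, adjusted p = 0.696, limma). In the DKO the groups overlapped, with an Iso difference of -0.11. Another small subunit member, Rps24, differed by -0.38 with Iso in WT (adjusted p = 0.779, limma), with overlapping groups.

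Iso in DKO cells gave a median of -0.07 over members, with 22 of 53 above 0, against 0.01 over all genes. Groups did not overlap for 9 members, 17.0%, against 21.5% of all genes. Of these, Rps4l, Rps3, Rps19bp1, Rpl10a, Rps27, Rpl22, Rplp1 and Rpl6l were lower with Iso and Rpl6 was higher. On the same arrays the macrophage and leukocyte marker list, as a mean over its genes around its overall mean, lay at 0.16 to 0.22 in untreated and -0.37 to -0.21 in treated DKO, and its part in these differences was not tested. In WT this mean lay at 0.00 to 0.14 untreated and -0.14 to 0.13 treated. The cardiac myocyte list was higher with Iso in both genotypes: -0.16 to -0.05 against 0.03 to 0.10 in WT, and -0.16 to -0.01 against 0.02 to 0.19 in DKO. The mesothelial list was higher with Iso in WT (-0.13 to -0.06 against 0.10 to 0.37). Alas2, the only tested red cell gene, was lower in DKO (-0.06 to 0.22 against -0.33 to -0.12). The part of these lists in the member differences was not tested either.

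Rpl22l1, the paralog that can take the place of Rpl22 in the large subunit, had the smallest p of all members for Iso in DKO and for the averaged Iso effect. It measured 9.12, 9.27 and 8.82 in untreated WT and 9.64, 9.63 and 9.58 in treated WT, with no overlap. In the DKO it measured 8.85, 8.78 and 9.65 untreated and 10.11, 10.21 and 9.48 treated, and the overlap came from mouse 3, the animal whose untreated array stood apart. The Iso difference was 0.54 in WT (SE 0.24, adjusted p = 0.705) and 0.84 in DKO (SE 0.24, adjusted p = 0.112, both limma). Averaged over genotypes it was 0.69 (SE 0.17, 95% interval 0.33 to 1.05, adjusted p = 0.110, limma), a ratio of 1.61. Without the third untreated DKO array, the difference was 1.11 in DKO (adjusted p = 0.0421) and 0.83 averaged (adjusted p = 0.0183, limma), so Rpl22l1 then passed in both. Mouse by mouse, Rpl22l1 was higher with Iso by 0.52, 0.36 and 0.76 in WT and by 1.26 and 1.43 in DKO, and lower in DKO mouse 3 (-0.17).

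Rpl22 itself, an RNA-binding protein of the large subunit, had no positive Iso difference in either genotype. It measured 5.79, 5.82 and 5.81 in untreated WT and 5.75, 5.59 and 5.84 after Iso. In the DKO it measured 5.85, 5.83 and 6.45 untreated and 5.74, 5.69 and 5.79 treated. Its Iso difference was -0.08 in WT (95% interval -0.42 to 0.26) and -0.30 in DKO (-0.64 to 0.04). Its highest value was on the array that stood apart, and without that array the difference in DKO was -0.10.

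**Figure D2:**
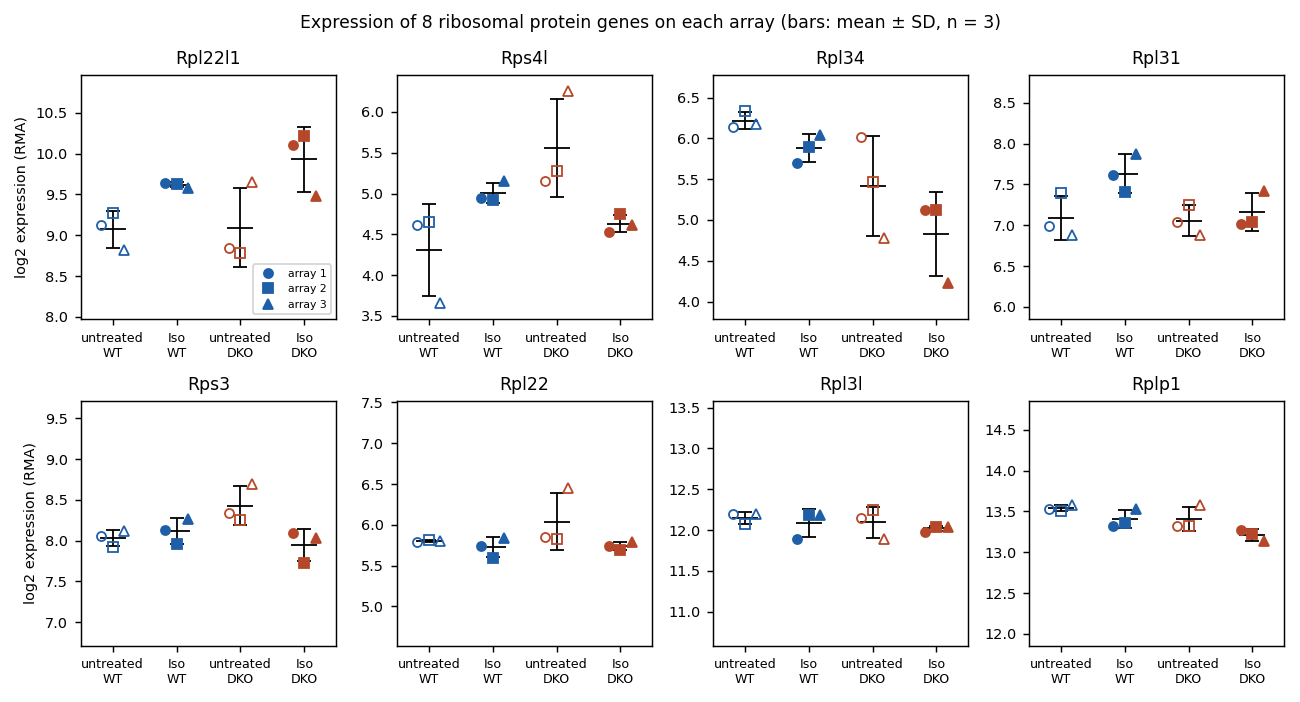
Log2 expression of 8 members on each of the 12 arrays, by group; open symbols are untreated and filled symbols Iso-treated, symbol shape gives the replicate number, and black bars give the mean ± SD of 3 arrays. Each panel spans at least 3 log2 units. Rpl22l1 was higher on treated arrays except in DKO replicate 3, and Rpl34 was lower in DKO, while Rpl3l stayed within 11.89 to 12.24.

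Rps4l, a paralog of the small subunit protein Rps4x that GRCm38.p6 annotates as a transcribed pseudogene, had Iso differences of opposite sign in the 2 genotypes. It measured 4.61, 4.65 and 3.66 in untreated WT and 4.94, 4.92 and 5.15 in treated WT. In DKO it measured 5.16, 5.28 and 6.25 untreated and 4.53, 4.75 and 4.61 treated. All treated arrays were higher in WT and all were lower in DKO, by 0.70 (SE 0.29, adjusted p = 0.695) and -0.93 (SE 0.29, adjusted p = 0.132, limma). The difference between the Iso effects was -1.63 (95% interval -2.51 to -0.74, unadjusted p = 0.00167, adjusted p = 0.316, limma). Without the third untreated DKO array it was -1.28 (adjusted p = 0.210), and the Iso difference in DKO was -0.59. The third untreated WT array held the lowest value, and without it the Iso difference in WT was 0.37.

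Rps3, a small subunit protein that is also known to act in DNA repair, measured 8.06, 7.92 and 8.12 in untreated WT and 8.13, 7.96 and 8.27 in treated WT, which overlapped. In DKO it measured 8.33, 8.25 and 8.70 untreated and 8.09, 7.73 and 8.04 treated, without overlap. The Iso difference was -0.48 in DKO (SE 0.15, adjusted p = 0.138, limma) and 0.09 in WT. Without the third untreated DKO array the DKO value was -0.34. Rps19bp1 differed by -0.45 in DKO (adjusted p = 0.155) and by -0.36 averaged (adjusted p = 0.166, limma). Rpl10a, of the large subunit, differed by -0.67 (adjusted p = 0.173, limma) in DKO, and by -0.37 without the third untreated DKO array. It lay above the array median on only 4 arrays. Its treated DKO values (2.78, 2.89 and 2.88) were all below that median, so this difference runs into the dim range.

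The paralogs Rps27 and Rps27l, of which Rps27l is known as a p53 target, are shown side by side. In WT their Iso differences were 0.03 for Rps27 and 0.01 for Rps27l. In DKO they were -0.49 (adjusted p = 0.195) and -0.40 (adjusted p = 0.396, limma). On the treated DKO arrays Rps27 lay at 2.98 to 3.11, below the array median. Both were highest on the third untreated DKO array, at 3.88 and 9.20, and without it the DKO differences were -0.32 for Rps27 and -0.06 for Rps27l.

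The Iso effect was also followed within each mouse. The median over members was -0.01, -0.05 and -0.03 in the 3 WT mice and -0.05, -0.08 and -0.11 in the 3 DKO mice. In all 6 mice, 5 members were lower with Iso: Rpl34, Rpl41, Rplp1, Rps19bp1 and Rps20. These are 9.43% of members, and 3.65% of all genes were lower in all 6. Rps20 passed the filter only through untreated arrays, so its place among them lends no support. On treated arrays it lay at 3.05 to 3.20, below the array median. Rpl32-ps was the only member higher in all 6 mice, by 0.06 to 0.16, which is 1.89% of members against 3.49% of all genes. Rplp1, a protein of the acidic stalk that binds elongation factors, differed by -0.05, -0.10 and -0.45 in the DKO mice and by -0.21, -0.14 and -0.04 in the WT mice, and its averaged Iso effect did not pass the test.

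In the difference between the Iso effects (DKO minus WT), the member median was -0.06 with 23 of 53 above 0, against 0.01 over all genes. After Rps4l, the smallest p belonged to Rps3 (-0.56, adjusted p = 0.428), Rps24 (0.62, adjusted p = 0.471), Rpl7l1 (0.81, adjusted p = 0.493) and Rpl27 (-0.60, adjusted p = 0.493, all limma). Rpl7l1, which works in assembly of the large subunit, measured 3.99 on the third untreated DKO array and 4.99 to 5.61 on the other 11. Without that array its difference was 0.40, and that of Rpl27 was -0.36.

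DKO against WT without Iso gave a median of 0.02 over members, with 27 of 53 above 0, against -0.01 over all genes. Groups did not overlap for 10 members, 18.9%, against 17.0% of all genes: Rps4l, Rps3 and Rpl22 were higher in DKO, and Rpl34, Rpl17, Rps24, Rpl23, Rpl39l, Rps25 and Rps21 were lower. This comparison shares its untreated arrays with both Iso comparisons, the untreated WT arrays with the same sign as in Iso in WT and the untreated DKO arrays with the opposite sign to Iso in DKO.

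Rps4l showed the widest gap of the members between genotypes without Iso, 1.25 (SE 0.29, 95% interval 0.63 to 1.88, adjusted p = 0.125, limma). Without the third untreated DKO array it was 0.91 (adjusted p = 0.139). Rpl17 and Rps24 differed by -0.57 (adjusted p = 0.258) and -0.50 (adjusted p = 0.280), and by -0.30 and -0.34 without that array. Rps3 differed by 0.40 (adjusted p = 0.285, limma), and by 0.26 without it.

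Rpl34, a large subunit protein, was lower in DKO both without and with Iso. It measured 6.14, 6.33 and 6.18 in untreated WT and 6.01, 5.46 and 4.78 in untreated DKO. With Iso it measured 5.70, 5.89 and 6.04 in WT and 5.13, 5.12 and 4.23 in DKO. The groups did not overlap in either comparison, and the spread was wider in DKO (SD 0.62 and 0.52) than in WT (SD 0.10 and 0.17). The difference was -0.80 without Iso (SE 0.29, adjusted p = 0.257) and -1.05 with Iso (SE 0.29, 95% interval -1.67 to -0.43, adjusted p = 0.229, limma). With the third untreated DKO array left out of the fit, the difference without Iso was -0.48. The difference with Iso, which does not use that array, then kept its size and passed (adjusted p = 0.0416, limma). Without the third Iso-treated DKO array, the difference with Iso was -0.75. Its copy Rpl34-ps2, at 11.53 to 12.37, differed by 0.40 without and 0.17 with Iso (adjusted p = 0.220 and 0.850, limma).

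DKO against WT with Iso gave a median of 0.01, with 27 of 53 members above 0, against 0.00 over all genes. Groups did not overlap for 10 members, 18.9%, against 17.6% of all genes. Beside Rpl34, the smallest p belonged to Rpl31 (-0.47, adjusted p = 0.492), Rps27 (-0.34, adjusted p = 0.725), Rps13 (0.51, adjusted p = 0.726) and Rps23rg1 (0.38, adjusted p = 0.746, all limma). For Rps27 the difference was -0.15 without the third Iso-treated WT array, and for Rps23rg1 it was 0.14 without the first Iso-treated DKO array. Among marker genes on these arrays, Nppa of the atrial list fell by 1.28 in DKO (adjusted p = 0.0262, limma). Cd74, a gene of antigen-presenting cells, fell by 0.94 (adjusted p = 0.0400, limma). Of the tested genes, 0 of 4 of the atrial list and 1 of 7 of the macrophage and leukocyte list were above 0. Nppa also fell in DKO without Iso, by 1.61 (adjusted p = 0.00733, limma). In that comparison 1 of the 4 atrial genes, Myl4, was above 0 (0.42). Nppa was bright on every array (10.65 to 13.02). The mean of the atrial list ran from -0.66 to 1.60 among the Iso-treated WT arrays. The part of these markers in the member values was not tested.

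The remaining members chosen by name gave no call either. Rpl3l measured 11.89 to 12.24 on all arrays and differed by -0.07 with Iso in both WT and DKO and by -0.06 between genotypes in each state. Its 95% interval for Iso was -0.35 to 0.21 in both genotypes, so a change of 1 log2 unit lies outside. Rplp0, the scaffold of the stalk, differed by -0.10 with Iso in WT and -0.37 in DKO, and Rpsa, also known as the laminin receptor, by -0.11 and 0.17. Without the third untreated DKO array the DKO values were -0.13 for Rplp0 and -0.05 for Rpsa. Rpl5, which with Rpl11 binds Mdm2 when assembly fails, differed by 0.49 with Iso in WT (95% interval -0.23 to 1.21) and 0.03 in DKO, and the WT value was 0.23 without the first and 0.86 without the third untreated WT array. Rpl36al differed by -0.28 and -0.18, with -0.46 to -0.14 in WT and -0.30 to -0.03 in DKO when 1 array was left out, and Rpl39l by -0.12 and 0.12, the latter -0.08 without the first untreated DKO array. Rpl7 differed by 0.71 between genotypes without Iso (adjusted p = 0.361, limma), and by 0.38 without the first untreated DKO array.

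Members differed widely in how tightly replicates clustered. The pooled SD within groups was smallest for Rps9 (0.069), Rps21 (0.079) and Rpl8 (0.082) and largest for Rpl35a (0.70), Rps14 (0.68), Rps12l1 (0.60), Rpl4 (0.57) and Rpl27a (0.55). The median over tested members was 0.302, against 0.207 over all genes. For Rpl4, a large subunit protein lining the exit tunnel, 11 arrays lay between 11.74 and 12.19 and the third untreated DKO array at 10.09, and the SD was 0.141 without that array. Rpl27a likewise measured 6.56 there and 7.68 to 8.62 elsewhere, with an SD of 0.188 without it. Rps14 measured 5.78 there and 3.23 to 4.54 elsewhere, so this array lay low for some members and high for others. The Iso difference of Rps14 in DKO was -0.06 with this array and 0.62 without it.

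**Figure D3:**
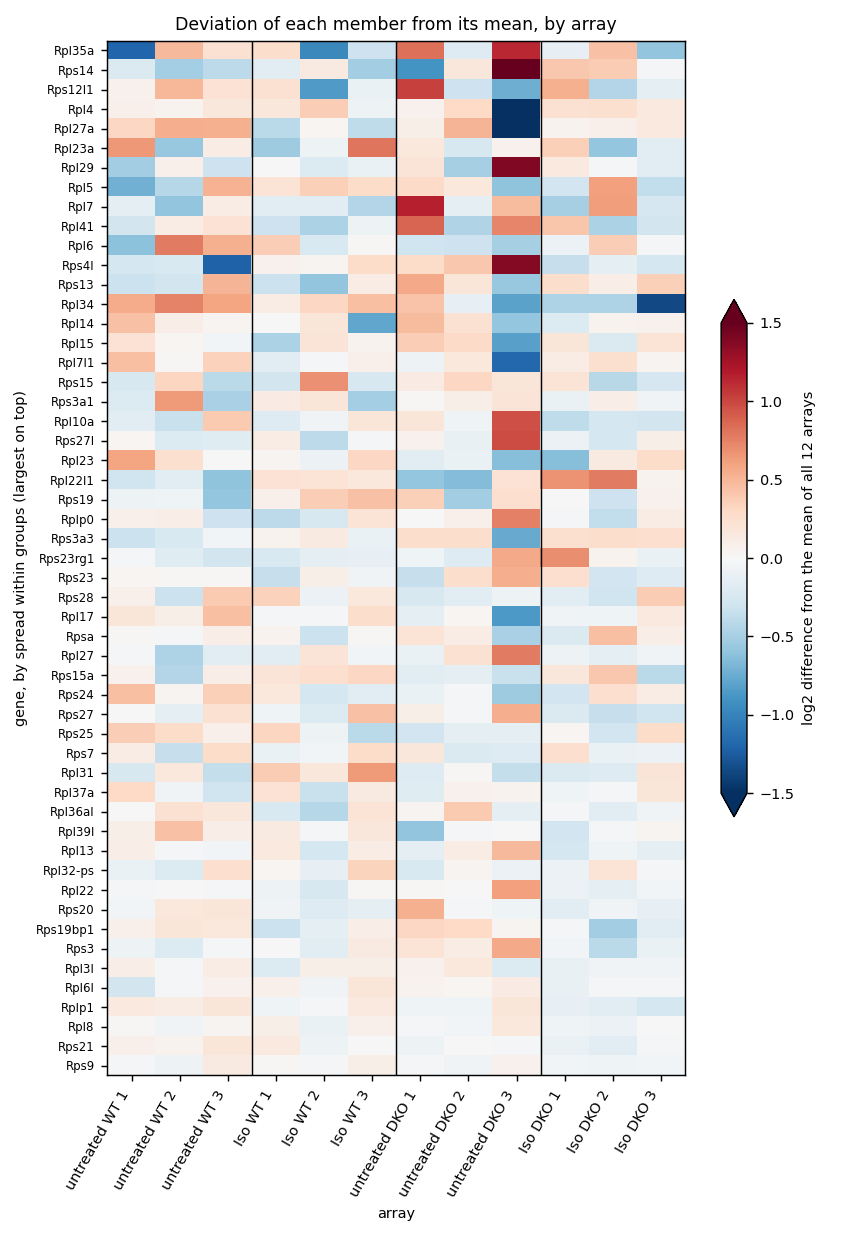
Difference of each tested member (rows, widest spread within groups on top) from its own mean over the 12 arrays (columns, by group), in log2 units from blue (lower) to red (higher), with colours capped at 1.5. The third untreated DKO column holds strong values of both signs, such as Rpl4 and Rpl27a low and Rps14 and Rpl29 high.

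Deviations of different members within groups had no common direction. Over the 1378 pairs of tested members, the correlation of deviations from the group means had a median of 0.00 with quartiles of -0.32 and 0.35 across 12 arrays, which share 4 fitted means and, in pairs, a mouse. Without the untreated DKO group it was 0.02 over 9 arrays.

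Genes that make or control ribosomes were described from fixed lists, and none of their genes passed the test in any of the 6 comparisons. Their values for Iso in DKO and for DKO without Iso include the third untreated DKO array, which stood apart. No values without it are given for these lists, their genes or the pseudogene copies. Of 78 genes of mitochondrial ribosomal proteins, 76 were tested. Their median Iso difference was -0.10 in WT, with 13 of 76 above 0, and -0.21 in DKO, with 25 of 76 above 0, against -0.05 and -0.07 for the cytosolic members. In DKO 21 of these 76 genes were lower and 4 higher at an unadjusted p under 0.05 (limma), against 1228 lower and 1299 higher of all 13737 genes, led by Mrpl4 (-0.81, adjusted p = 0.0845). The 29 tested pseudogene copies had medians of -0.11 and -0.24.

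Of 58 tested genes of ribosome assembly and RNA polymerase I, the median Iso difference was -0.03 in WT and 0.03 in DKO. Polr1b, a core subunit of RNA polymerase I, differed by -0.52 with Iso in WT (adjusted p = 0.598) and 0.27 in DKO (adjusted p = 0.424), and by -0.61 between genotypes without Iso (adjusted p = 0.181, limma). Ncl, which encodes nucleolin, differed by -0.07 and 0.54 with Iso and by -0.64 between untreated genotypes (adjusted p = 0.258, limma). The 25 tested initiation factors had Iso medians of -0.04 in WT and 0.22 in DKO.

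Among 16 tested other TOP genes the Iso medians were 0.01 and -0.10. Eef2, the elongation factor that moves the ribosome along, differed by 0.16 and -0.21, Npm1 by 0.16 and 0.28, and Fau, whose product carries a small subunit protein, by -0.01 and -0.22. Of 24 tested genes of mTORC1 and Myc signalling, the medians were -0.13 and -0.07. Mtor differed by -0.10 and 0.31, Larp1 by 0.09 and -0.01, Myc by 0.01 and -0.14, and Eif4ebp1, the repressor of cap-dependent initiation, by -0.15 and -0.52 (adjusted p = 0.155 in DKO, limma). The 19 tRNA synthetases had medians of 0.04 and -0.01. Eef1a1 and Fbl were too dim to test, and Rack1 and Rps6kb1 were not analysed here.

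**Figure D4:**
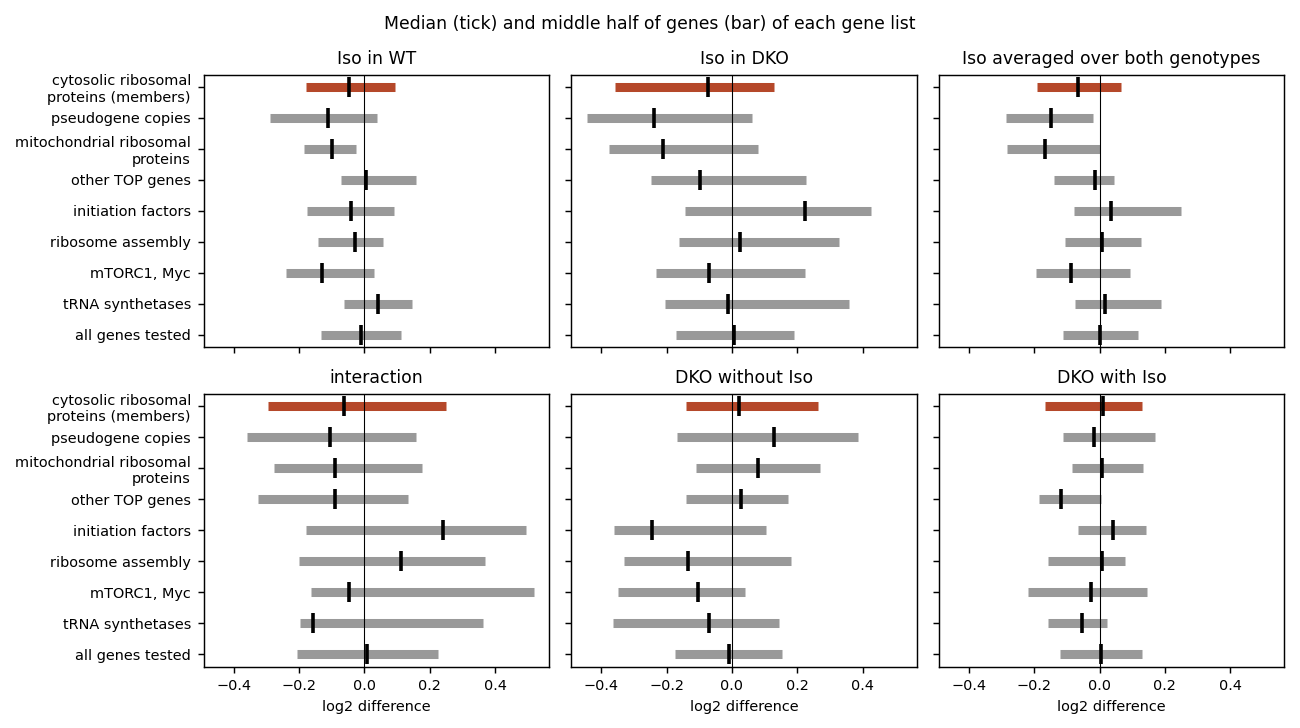
Log2 differences of each gene list in the 6 comparisons; the black tick is the median and the bar spans the lower to the upper quartile of its tested genes, with the 53 members in red and all 13737 genes at the bottom. Member medians lay between -0.07 and 0.02, and the mitochondrial ribosomal list and the pseudogene copies lay lower with Iso in DKO (-0.21 and -0.24). The values in DKO include the third untreated array, which stood apart.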

How the data were processed

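The deposited values are log2 intensities of 12 Affymetrix arrays, 1 probe set per gene. The authors processed them with RMA, per the submitters' processing notes. The sources used here give no version, array type or genome build. RMA gives every array the same distribution, so a shift common to all genes cannot be seen. Symbols came from the platform annotation. Of 25428 probe sets, 723 had no symbol or more than 1 and were left out, and 1 symbol with 2 probe sets was read from the brighter. Samples were grouped by title, with no array left out.

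Values were fitted in R 4.3.3 with limma 3.58.1 (lmFit, contrasts.fit, eBayes) as 4 group means over 12 arrays, and p-values were adjusted by Benjamini-Hochberg over 13737 genes at a threshold of 0.05. The code was tested on simulated data. The number of arrays limits the precision.

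The mouse numbers in the labels pair untreated with treated arrays of the same animal. For the 2 arrays of a mouse, deviations from the means of their groups had correlations of 0.01, 0.09 and 0.13 in the DKO animals and -0.06, 0.06 and 0.01 in the WT animals. The fit had no mouse block, which was an alternative. Other alternatives were the filter, the scaling, array weights, the variance model, the arrays in the fit, the standard subunits alone, and leaving out each array.

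Members and gene lists were chosen with earlier results of these data known. Named were 30 members listed by name, the 5 with the smallest p in each comparison, the 5 most and 3 least variable, those at the extremes of direction over mice, and a fixed set of genes of other lists, of which 1 is not reported here. Genes whose groups did not overlap, and the leading copies and mitochondrial genes, were named after their values were seen.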

Additional observations from a re-analysis of the deposited data

Results flagged for a closer look

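For 3 members every WT mouse moved one way with Iso and every DKO mouse the other way, which is 5.66% of the 53 members, against 4.86% of all genes tested. For Rps4l the Iso effect in DKO minus that in WT was -1.63 (limma, unadjusted p = 0.00167, adjusted p = 0.316). For Rps3 it was -0.56 (adjusted p = 0.428, limma), with 3 WT mice higher and 3 DKO mice lower. For Rpl7l1 it was 0.81 (adjusted p = 0.493, limma), with 3 WT mice lower and 3 DKO mice higher. None of the 3 passed the test of the difference.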

How the results depend on the processing

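Under all alternatives run (23 for Iso in WT and in DKO, 22 for each other comparison), the member medians shifted by less than 0.12. This bound is the pooled SD within groups of the array medians of members. It is wider than the distance of any member median from 0, so it could hardly fail and does not show stability. Medians for the difference between Iso effects and for both genotype comparisons, which lie near 0, took both signs. For DKO with Iso the sign changed in 9 of 22 alternatives. Of 2619 recomputed values of 123 gene results, 12 newly passed and all others kept their side of the threshold. Of those that kept it, 2591 were counted as the same, 62 of them with the other sign where the difference was below its standard error. A further 15 changed sign with a shift of at least 1 standard error, and 1 reversed from a difference above its standard error. With array weights, 4 members passed for Iso in DKO (Rps19bp1, Rps20, Rpl22l1 and Rpl34, with 8.07% of all genes), 4 for the averaged Iso effect (the same 4, 4.23%) and 3 for DKO without Iso (Rpl7, Rps4l and Rpl39l, 5.08%). Rps14 in DKO without Iso was -0.21 with array weights against 0.68. Leaving out 1 array gave 0 to 1 members for Iso in DKO, for the averaged Iso effect and for DKO with Iso, and the 1 came without the third untreated DKO array (Rpl22l1 for Iso in DKO and averaged, with 0.229% and 0.753% of all genes, and Rpl34 for DKO with Iso, with 1.2%). With 3 arrays per group, small differences in dim or copied members stay below what these data resolve.

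The replicate block of the mouse, random or fixed, left 0 members passing in each comparison, and changed no member's call. A fixed block was run only within genotypes, in which the mice are nested. Over all genes the fixed block gave 5 calls for the difference between Iso effects, against 2 without it; the cause was not tested.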
